A study of Mus musculus with 16 samples.

Results

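The genes described here were taken by symbol, and most encode subunits of the mitochondrial respiratory chain and ATP synthase. The symbols were those of Nduf subunits for complex I, Sdh for complex II, Uqcr for complex III, Cox4 to Cox8 for complex IV and Atp5 for complex V. Mitochondrial genes were those named mt-Nd, mt-Co and mt-Atp. Symbols give neither a full nor a pure list of subunits: Atp5s, counted in complex V, is Dmac2l in RefSeq. Of the 52997 gene rows in the table, 95 matched after 6 pseudogene rows were left out. Of these, 83 are encoded in the nucleus (35 in complex I, 4 in complex II, 8 in complex III, 20 in complex IV and 16 in complex V) and 12 in the mitochondrial genome (7 in complex I, 3 in complex IV and 2 in complex V). Ndufa4 and Ndufa4l2, though named Nduf, were counted in complex IV. The symbol pattern for cytochrome b matched no row, because the table spells that gene mt-Cytb. Its values are given beside those of the 95 and it is counted in none of their sums.

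The respiratory chain passes electrons from NADH and succinate to oxygen, and the proton gradient it builds drives ATP synthase. Complex II is made wholly from nuclear genes, whereas the other 4 complexes combine nuclear subunits with subunits made inside the mitochondrion from long transcripts of both strands of its own genome. In regulatory T cells (Tregs), which express Foxp3 and restrain immune responses, and in skeletal muscle fibres, oxidative phosphorylation is a known source of ATP, and muscle fibres use their own isoforms of several complex IV subunits.

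RNA was sequenced from Tregs sorted out of skeletal muscle and spleen and from whole skeletal muscle of B6 mice aged 6 to 8 weeks. Transgenic mice (Tg, mTreg24 TCR-tg+) carry a T cell receptor from a muscle Treg, and mice without it (mTreg24 TCR-tg-) are called WT here. Mice used for sorting carried Foxp3 GFP in both genotypes. The 5 Treg groups, with 2 libraries each, were Tg muscle, WT muscle, Tg spleen after injury, Tg spleen without injury, and WT spleen. Muscle was injured with cardiotoxin, a snake toxin that kills fibres, and Tregs were sorted 3 days later. That WT spleen Tregs also came from injured mice rests on the design text alone. The sort took Vβ8+ Tregs from Tg mice but total Tregs from WT mice, so gate and genotype cannot be told apart. Whole muscle, 3 libraries for Tg and 3 for WT, dates from 8 days after injury. Nothing states whether libraries came from separate animals, so the p-values cover only the spread among these samples, part of which may be technical.

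Total counts ran from 1986700 to 9116800 in Treg libraries and from 5095999 to 7075420 in whole muscle libraries. The Treg label held against its markers: Foxp3 had 1798 to 2125 CPM (counts scaled to a common library total) in the 4 muscle Treg libraries and 1108 to 1415 CPM in the 6 spleen Treg libraries, against 0 to 1.54 CPM in whole muscle. Acta1, the main actin of muscle fibres, had 0 to 2 counts in every Treg library and at least 378166 counts in whole muscle. Among macrophage markers, C1qa had 0 to 10 counts in muscle Treg libraries and 1 to 65 in spleen Treg libraries. The 16 macrophage markers together summed to 1583 to 2270 CPM in muscle Treg libraries and 554 to 1007 CPM in spleen, mostly Ccr2 and Ctss. B cell markers summed to 1138 to 1565 CPM in muscle and 1720 to 3360 CPM in spleen.

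In Tregs, mitochondrial-encoded respiratory chain transcripts took a smaller share of the library in muscle than in spleen, while the share of the 83 nuclear genes overlapped. The 12 mitochondrial genes summed to 0.627 and 0.623% of counts in Tg muscle Tregs and to 0.730 and 0.867% in WT muscle Tregs. In spleen they summed to 0.932 and 1.08% in injured Tg mice, 0.961 and 1.06% in uninjured Tg mice, and 1.05 and 1.31% in WT mice. All 4 muscle libraries thus lay below all 6 spleen libraries. Nuclear members summed to 1.01 to 1.11% in muscle Treg libraries and to 1.05 to 1.19% in spleen Treg libraries. These are bulk samples, in which fewer cells of a type and less RNA per cell cannot be told apart.

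**Figure D1:**
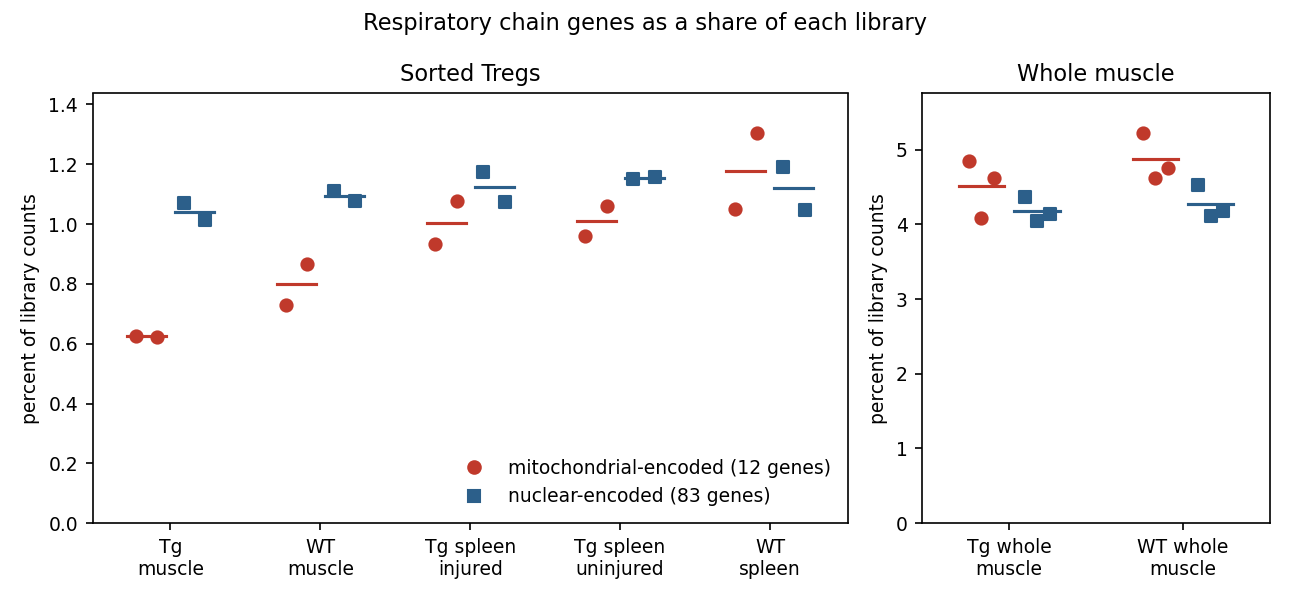
Share of each library's counts, in percent, taken by the 12 mitochondrial-encoded genes (red circles) and the 83 nuclear-encoded genes (blue squares) in Treg groups (left) and whole muscle (right), with each axis starting at 0. Points are libraries and bars are group means; the mitochondrial share lies at 0.623 to 0.867% in muscle Tregs, below every spleen Treg library, while the nuclear shares overlap.

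Almost all counts of the mitochondrial members were assigned to a few genes. mt-Nd1, mt-Co1, mt-Nd5 and mt-Nd4 together made 95.9 to 97.8% of them in every library. mt-Co2, mt-Co3, mt-Atp6, mt-Nd3 and mt-Nd4l share 98.1 to 100% of their 25-base windows (the read length) with transcripts of other genes. The share is 0% for mt-Nd1, 11.7% for mt-Atp8 and 69.7% for mt-Co1. The part of shared sequence in these counts and in the order below was not tested. Per kilobase of exon, the order in WT spleen Tregs was mt-Nd1 at 5034 ± 824 CPM, mt-Co1 at 2363 ± 215 CPM and mt-Nd5 at 1234 CPM per kilobase (SD, n = 2), and among the 95 genes the same 3 led, in this order, in all 7 groups. mt-Nd1, a core membrane subunit of complex I, and mt-Co1, the catalytic subunit of complex IV, exceeded every nuclear member in each group. Among nuclear members, Cox8a and Cox4i1, both structural subunits of complex IV, held the top places in all 5 Treg groups, at 277 to 348 and 301 to 341 CPM per kilobase. Median levels of nuclear members per kilobase in Treg groups were 113 to 118 CPM for complex III, 83.9 to 106 for complex II, 58 to 69.2 for complex V, 46.5 to 61.8 for complex I and 39.7 to 43.3 for complex IV. The complex IV median covers 20 genes, of which 13 passed the filter on low counts described below. Exon lengths join all annotated exons of a gene: Atp5l has 6443 bases, while its longest coding transcript has 544. These medians therefore do not rank the complexes by expression.

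The fall in muscle Tregs was tested gene by gene with edgeR across all 13188 genes that passed a filter on low counts, with Benjamini-Hochberg adjustment and an adjusted p under 0.05 for a call. Of the 12 mitochondrial members, 10 passed the filter, and mt-Nd4l and mt-Atp8, with at most 7 counts in any Treg library, did not. In Tg muscle against injured Tg spleen, 5 of the 10 were called lower and 0 higher, where 2.55% of all genes were called lower and 4.83% higher (7.38% called in all). In WT muscle against WT spleen, 4 of the 10 were called lower and 0 higher, where 6.87% of all genes were called lower and 9.38% higher (16.2% in all). All 9 of these calls are complex I genes, as are 6 of the 10 tested members. Of the others, mt-Co2, mt-Co3 and mt-Atp6 had low counts. mt-Cytb, of complex III and outside the count, was also lower past the threshold in both genotypes (values below), so the fall is not confined to complex I. The median log2 difference of the 10 was -0.68 in Tg and -0.65 in WT, beside -0.04 over all genes in each comparison.

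mt-Nd5 (chrM:11742-13565, GENCODE M21 on GRCm38, the build of mm10) had 864 and 835 CPM in Tg muscle Tregs, against 1703 and 2028 CPM in injured Tg spleen Tregs. In WT mice it had 1025 and 1146 CPM in muscle Tregs, against 1924 and 2577 CPM in spleen Tregs. Muscle and spleen libraries did not overlap in either genotype. The log2 difference was -0.94 ± 0.15 (SE; adjusted p = 0.00095) in Tg and -0.87 ± 0.15 (adjusted p = 0.0011) in WT, by edgeR's quasi-likelihood test. mt-Nd5, a membrane subunit at the far end of the complex I arm, kept its call in both genotypes under all 12 alternative settings tried, each library left out in turn included.

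mt-Nd2 (chrM:3914-4951), another membrane subunit of complex I, had 93.8 and 89.2 CPM in Tg muscle Tregs, against 184.9 and 229.5 CPM in injured Tg spleen Tregs. In WT it had 102.5 and 137.7 CPM in muscle Tregs, against 231.5 and 335.6 CPM in spleen Tregs. All 4 muscle libraries were below all 4 spleen libraries compared, with log2 differences of -0.98 ± 0.20 in Tg (edgeR adjusted p = 0.00732) and -1.05 ± 0.20 in WT (adjusted p = 0.0025). mt-Nd4 (chrM:10167-11544) fell by 0.74 ± 0.16 on the log2 scale in Tg (edgeR adjusted p = 0.00914) and by 0.73 ± 0.16 in WT (adjusted p = 0.00596). Its values were 291 and 301 CPM in Tg muscle Tregs, against 530 and 604 CPM in injured Tg spleen Tregs. In WT they were 307 and 386 CPM in muscle Tregs, against 576 and 735 CPM in spleen Tregs.

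mt-Nd6 is the only one of these genes on the other strand (chrM:13552-14070, minus strand). It had 27.2 and 33.6 CPM in Tg muscle Tregs, against 67.8 and 64.1 CPM in injured Tg spleen Tregs, and in WT 33.5 and 44.9 CPM in muscle Tregs, against 62.4 and 97.1 CPM in spleen Tregs. The edgeR log2 difference was -0.91 ± 0.26 (adjusted p = 0.042) in Tg and -0.84 ± 0.25 (adjusted p = 0.0329) in WT. The libraries do not mark strand, so RNA of the opposite strand over mt-Nd6 would be counted with it.

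mt-Nd1 (chrM:2751-3707) had 2393 and 2405 CPM in Tg muscle Tregs, against 3647 and 4123 CPM in injured Tg spleen Tregs, and was called in Tg, at -0.50 ± 0.14 (edgeR adjusted p = 0.0459). In WT it had 2868 and 3428 CPM in muscle Tregs, against 4260 and 5375 CPM in spleen Tregs, at -0.43 ± 0.14 with an adjusted p of 0.0542. The Tg call was lost whenever 1 of the 4 compared libraries was left out, and the WT value passed the threshold under 8 of 12 alternatives. mt-Cytb, the complex III subunit outside the count, fell in both genotypes: by 0.75 ± 0.13 on the log2 scale in Tg (edgeR adjusted p = 0.00202) and by 0.71 ± 0.13 in WT (adjusted p = 0.00173). It had 1061 and 1087 CPM in Tg muscle Tregs, against 1962 and 2167 CPM in injured Tg spleen Tregs, and in WT 1329 and 1419 CPM in muscle Tregs, against 2306 and 2817 CPM in spleen Tregs.

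mt-Co1 (chrM:5328-6872) was not called in either genotype with trimmed-mean (TMM) scaling. It had 2578 and 2545 CPM in Tg muscle Tregs, against 3158 and 3694 CPM in injured Tg spleen Tregs, a log2 difference of -0.22 ± 0.14 (edgeR adjusted p = 0.398). When libraries were scaled by their totals alone, the Tg difference was -0.42 and was called (edgeR adjusted p = 0.0465). In WT it had 2937 and 3498 CPM in muscle Tregs, against 3416 and 3887 CPM in spleen Tregs, where the WT libraries overlap. The WT log2 difference was 0.01 ± 0.14 (adjusted p = 0.987) with TMM and -0.19 with library totals. The other tested members, mt-Nd3, mt-Co2, mt-Co3 and mt-Atp6, had 2.16 to 19.5 CPM in Treg libraries and log2 differences of -0.20 to -0.85, none past the threshold.

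Because mt-Co1 comes from the same mitochondrial genome, the other transcripts were also expressed per 100 mt-Co1 counts of the same library, a ratio that no scaling changes. mt-Nd5 had 32.7 to 34.9 counts per 100 mt-Co1 counts in the 4 muscle Treg libraries and 49.9 to 66.3 in the 6 spleen Treg libraries. mt-Nd2 had 3.49 to 3.94 in muscle and 5.53 to 8.63 in spleen, and mt-Nd4 had 10.5 to 11.8 in muscle and 15.2 to 18.9 in spleen. For mt-Nd1 the ranges were 92.8 to 98 in muscle and 112 to 138 in spleen, for mt-Nd6 1.06 to 1.32 in muscle and 1.66 to 2.5 in spleen, and for mt-Cytb 40.6 to 45.3 in muscle and 58.7 to 72.5 in spleen. None of the 6 ranges of muscle and spleen Tregs overlapped. The 6 genes and their base were chosen after the gene values were seen, when mt-Co1 had changed less than the 6. The ratios share that base, so they are not separate results, and they are given without a test. They show unequal change, not that mt-Co1 stayed level.

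**Figure D2:**
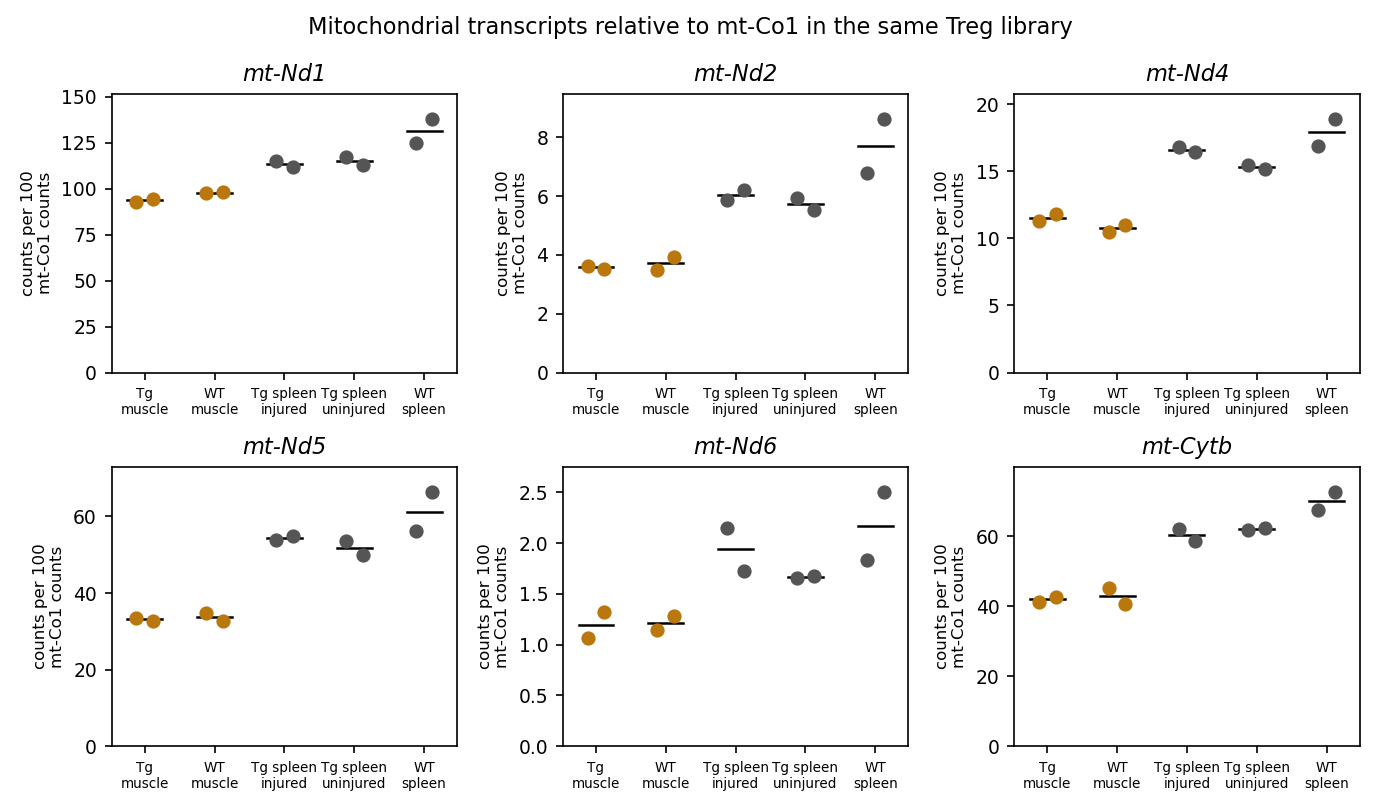
Counts of 6 mitochondrial transcripts per 100 mt-Co1 counts of the same library (vertical axes, each from 0) in the 5 Treg groups, muscle groups in orange and spleen groups in grey. Points are libraries and bars are group means; each transcript lies lower in all 4 muscle libraries than in all 6 spleen libraries, mt-Nd5 at 32.7 to 34.9 in muscle and 49.9 to 66.3 in spleen.

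The nuclear members moved less. Of 83, 76 passed the low-count filter in Tregs. In Tg muscle against injured Tg spleen 1 was called higher and 0 lower, with a median log2 difference of 0.07 and 47 of 76 above 0. In WT muscle against WT spleen 3 were called higher and 1 lower, with a median of 0.13 and 52 of 76 above 0. These shares are below the background of 7.38% and 16.2% of all genes called. TMM factors differed between muscle and spleen libraries. Scaling by library totals alone, chosen after seeing the data, shifted the median of all genes by -0.20 in Tg and by -0.19 in WT. With it the nuclear medians were -0.13 and -0.06, and 0 nuclear members were called higher in either genotype. The sign of the nuclear medians therefore depends on the scaling, and in Tg also on the libraries kept. With TMM, the Tg median was -0.04 without injured Tg spleen replicate 2, and 0.14 without replicate 1 of that group and 0.03 without Tg muscle replicate 1. The WT median was 0.01 without WT spleen replicate 2 and 0.25 without WT spleen replicate 1. With library totals the mitochondrial members stayed lower, with 6 called lower in Tg and 5 in WT. Over all genes, lower calls also rose with that scaling, from 336 to 684 in Tg and from 906 to 1383 in WT.

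Atp5d, the delta subunit in the rotor stalk of ATP synthase, was called higher in muscle Tregs of both genotypes with TMM scaling. It had 397 and 365 CPM in Tg muscle Tregs, against 326 and 309.9 CPM in injured Tg spleen Tregs, a log2 difference of 0.46 ± 0.13 (edgeR adjusted p = 0.0476). In WT it had 386 and 351 CPM in muscle Tregs, against 321 and 277 CPM in spleen Tregs, at 0.48 ± 0.13 (adjusted p = 0.0222). The groups did not overlap, but with library totals the differences were 0.26 and 0.30 and neither was called. The Tg call was also lost in each fit that left out 1 compared library.

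Uqcrfs1, the Rieske iron-sulfur protein of complex III, was called in WT alone, at 0.59 ± 0.17 (edgeR adjusted p = 0.0302), and had 203 and 198 CPM in WT muscle Tregs, against 177 and 127 CPM in WT spleen Tregs. Cox8a, a small subunit of complex IV, was called in WT at 0.52 ± 0.16 (adjusted p = 0.0438) with 221 and 210 CPM in muscle Tregs, against 197 and 146 CPM in spleen Tregs. In Tg muscle against injured Tg spleen, edgeR gave 0.40 ± 0.17 for Uqcrfs1 (adjusted p = 0.193) and 0.25 ± 0.16 for Cox8a (adjusted p = 0.43). Both WT calls were lost with library totals, and the differences between genotypes in these tissue effects were not past the threshold.

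Cox7a2l, which helps join complexes III and IV into supercomplexes, was the only nuclear member called lower. It had 166 and 158 CPM in WT muscle Tregs, against 256 and 272 CPM in WT spleen Tregs, at -0.52 ± 0.14 (edgeR adjusted p = 0.0203), and kept its call with library totals. In Tg it had 143 and 126 CPM in muscle Tregs, against 179 and 188 CPM in injured spleen Tregs, and was not called. The 2 WT spleen libraries were above the other 8 Treg libraries, which spanned 126 to 196 CPM. The WT call was lost in each fit that left out 1 compared library, at adjusted p of 0.0534 to 0.139, and with no low-count filter, at 0.0513.

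The most abundant uncalled nuclear member of each complex is given for its level, and says nothing of how often such genes were called. By edgeR in WT muscle against WT spleen, the log2 differences were 0.23 ± 0.16 for Ndufa13 (complex I; adjusted p = 0.388), -0.14 ± 0.14 for Sdha, the flavoprotein of complex II (adjusted p = 0.522), 0.19 ± 0.12 for the complex III core protein Uqcrc1 (adjusted p = 0.322), 0.31 ± 0.13 for Cox4i1 (adjusted p = 0.114) and 0.22 ± 0.12 for Atp5b, the catalytic beta subunit of ATP synthase (adjusted p = 0.241). In Tg muscle against injured Tg spleen the same genes lay between -0.09 and 0.18, none called. The 35 nuclear complex I genes had medians of 0.02 in Tg and 0.01 in WT, while the 6 tested mitochondrial complex I genes had -0.88 and -0.82.

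**Figure D3:**
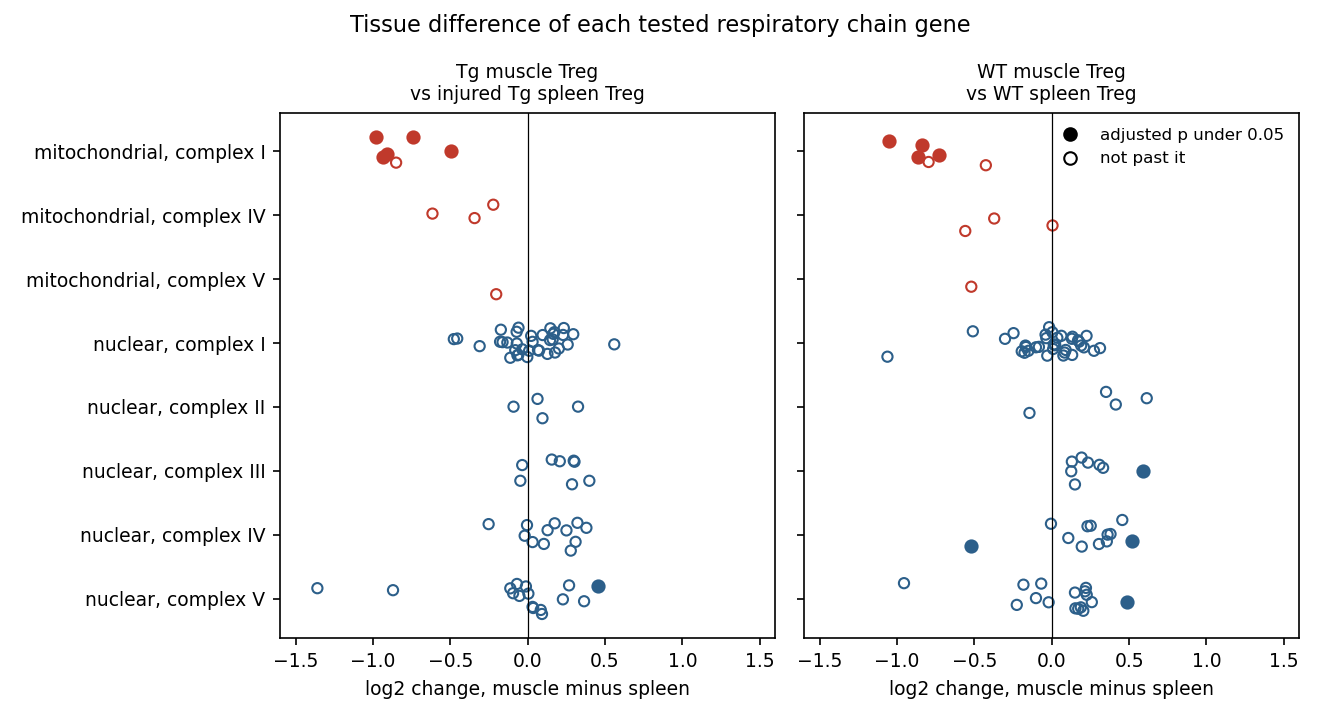
Log2 difference of each tested gene, muscle minus spleen Tregs (horizontal axis, TMM scaling), by genome and complex (rows), in Tg mice against injured spleen (left) and in WT mice (right); filled points have an edgeR adjusted p under 0.05. Mitochondrial complex I genes, in the top row, all lie left of 0, and the nuclear complex I genes centre near 0; Cox4i2, not called, lies beyond the axis at 5.53 (left) and 5.14 (right).

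Leaving out a library keeps 1 library in its group, and the calls over all genes changed along with those of members. In the WT comparison most members lost their call without WT spleen replicate 2, where calls over all genes were also fewest. That fit rests on WT spleen replicate 1, which had the smallest total of all libraries (1986700 counts). Without WT spleen replicate 2, the log2 differences were -0.75 for mt-Nd2, -0.54 for mt-Nd4, -0.47 for mt-Nd6, 0.37 for Uqcrfs1, 0.32 for Cox8a and 0.39 for Atp5d. In the Tg comparison 6 members were called with all libraries. Fewer were called in each fit that left out 1 compared library, and calls over all genes fell as well. mt-Nd6 lost its Tg call in all 4 of these fits, at -0.77 to -1.08. A fit of the 4 WT libraries alone called 2 members, both mitochondrial, and 1046 of 11991 genes, against 2143 of 13188 in the main fit.

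Other lists of mitochondrial genes, chosen with earlier results known, are set beside the 7.38% of all genes called in Tg and 16.2% in WT. List values here and in the next paragraph are with TMM scaling and all libraries. How they hold with library totals or with libraries left out is not given. Of 32 tested genes that copy, transcribe or regulate the mitochondrial genome, 1 was called higher and 3 lower in WT muscle against WT spleen, with a median of -0.29, and 1 higher and 1 lower in Tg muscle against injured Tg spleen, with a median of -0.13. By edgeR in WT, Twnk, the mitochondrial DNA helicase, was at -1.55 ± 0.38 (adjusted p = 0.0128), the coactivator gene Pprc1 at -1.41 ± 0.26 (adjusted p = 0.00169), Polrmt, the mitochondrial RNA polymerase, at -0.96 ± 0.28 (adjusted p = 0.0302), and Polg2, an accessory subunit of the mitochondrial DNA polymerase, at 0.90 ± 0.29 (adjusted p = 0.046). In Tg, Polg2 was called higher at 1.38 ± 0.29 (adjusted p = 0.00806) and Mterf1a lower at -2.55 ± 0.72 (adjusted p = 0.042). Tfam, which packages mitochondrial DNA and starts its transcription, was at -0.25 ± 0.21 in Tg (edgeR adjusted p = 0.567) and 0.06 ± 0.21 in WT (adjusted p = 0.89).

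Of 48 tested assembly factors, 0 were called in Tg and 1 in WT: Nubpl, an iron-sulfur factor of complex I assembly, at -2.16 ± 0.70 (edgeR adjusted p = 0.049). At an unadjusted p under 0.05 the Tg count was 4 of 48, beside 2706 of all 13188 genes. Of 34 genes of the citric acid cycle, pyruvate entry and electron carriers, 1 was lower in Tg (Coq6, of ubiquinone synthesis, at -1.40) and in WT 1 was higher (Idh3a, at 0.59) and 1 lower (Coq5, at -0.92). Of 8 genes for carriers, channels and uncouplers of the mitochondrial membranes, 1 was called higher in Tg and 4 in WT. The phosphate carrier Slc25a3 was called in both, at 0.56 ± 0.12 in Tg (edgeR adjusted p = 0.0106) and 0.49 ± 0.12 in WT (adjusted p = 0.0138). The WT calls included both ADP/ATP carriers, Slc25a4 at 0.75 and Slc25a5 at 0.49.

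Markers of tissue handling and of glycolysis moved with the muscle groups. The 23 dissociation and stress genes summed to 11960 to 14842 CPM in muscle Treg libraries and to 3825 to 4518 CPM in spleen Treg libraries, with 17 called higher and 0 lower in Tg and 17 higher and 1 lower in WT. The 18 glycolysis genes summed to 7059 to 7562 CPM in muscle and 3923 to 4928 CPM in spleen, with 9 called higher in Tg and 11 in WT, and 0 lower. B cell markers summed to 1138 to 1565 CPM in muscle and to 1720 to 3360 CPM in spleen, and macrophage markers to 1583 to 2270 CPM in muscle and 554 to 1007 CPM in spleen. Ccr2 and Ctss make most of the macrophage sums, and most other markers ran the other way: 10 of 13 tested were below 0 in each genotype, with a median log2 difference of -2.55 in Tg (1 called higher and 5 lower) and -2.18 in WT (2 higher and 2 lower). The 20 muscle fibre markers summed to 276 to 586 CPM in muscle Tregs and 202 to 498 CPM in spleen Tregs, mostly Neb and Ttn. The part of these differences in the mitochondrial result was not tested.

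The tissue effect was not shown to differ between genotypes for any member. In a test of the Tg effect minus the WT effect, edgeR called 0 of 86 members and 0.136% of all genes. DESeq2 and limma-voom each gave 0 members. In edgeR 0 members reached an unadjusted p of 0.05, where 1046 of all 13188 genes did. For mt-Nd5 the difference was -0.07 ± 0.21 (edgeR adjusted p = 0.963) and for mt-Nd2 0.07 ± 0.29 (adjusted p = 0.978).

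Tg muscle Tregs were compared with WT muscle Tregs, and 0 members were called by edgeR, DESeq2 or limma-voom (0.318% of all genes by edgeR). All 10 tested mitochondrial members had lower estimates in Tg muscle, with a median log2 difference of -0.36. Among them 3 had an unadjusted p under 0.05, as did 1152 of all 13188 genes. mt-Nd1 was at -0.39 ± 0.14 (edgeR adjusted p = 0.421), mt-Nd5 at -0.35 ± 0.15 (adjusted p = 0.517) and mt-Co1 at -0.33 ± 0.14 (adjusted p = 0.507). Leaving out WT muscle replicate 1 gave 2 calls, both mitochondrial and lower, in a fit that called 361 of 14375 genes, against 42 of 13188 with all libraries. The mitochondrial median was -0.52 in that fit and -0.13 without WT muscle replicate 2. Among 76 nuclear members the median was -0.04, and 1 had an unadjusted p under 0.05.

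Injured Tg spleen against WT spleen also gave 0 calls of members by these 3 tools, where edgeR called 1.3% of all genes. The 10 mitochondrial members were all at or below -0.10, with a median of -0.31, which was -0.52 without WT spleen replicate 1 and -0.15 without WT spleen replicate 2. Of the 10, 2 had an unadjusted p under 0.05, as did 1422 of all 13188 genes. These 2 were mt-Nd1 at -0.32 ± 0.14 (edgeR adjusted p = 0.425) and mt-Nd2 at -0.47 ± 0.20 (adjusted p = 0.394). Cox7a2l was at -0.53 ± 0.14 (edgeR adjusted p = 0.0906). This comparison and the preceding one each share libraries with the tissue comparisons, so their values are not independent of them. The gate differs with genotype in both.

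Injury made no detected difference in the spleen. In injured against uninjured Tg spleen Tregs edgeR called 0 members and 0% of all genes, and DESeq2 and limma-voom called 0 members. In edgeR 1 member had an unadjusted p under 0.05, as did 236 of all 13188 genes. mt-Nd5 had 1703 and 2028 CPM in injured mice, against 1745 and 1851 CPM in uninjured mice. The mitochondrial median was -0.02, and the nuclear median was -0.08 with 16 of 76 above 0.

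Whole muscle 8 days after injury held both classes at higher shares. Mitochondrial members summed to 4.85, 4.09 and 4.62% of counts in Tg muscle, against 5.23, 4.62 and 4.76% in WT muscle. Nuclear members summed to 4.37, 4.05 and 4.14% in Tg muscle, against 4.53, 4.11 and 4.19% in WT muscle. The genotypes overlapped. In a separate edgeR fit of 12377 genes, 0 of 92 members and 0.0323% of all genes were called. 0 members reached an unadjusted p of 0.05, where 598 of all 12377 genes did. The count of called members was 0 with DESeq2 and with limma-voom. The median log2 difference was -0.14 over 12 mitochondrial members, 11 of them below 0, and -0.06 over 80 nuclear members, 61 of them below 0. mt-Nd1 had 21482, 16066 and 19086 CPM in Tg muscle, against 22814, 19774 and 18557 CPM in WT muscle. Macrophage markers summed to 1676 to 2167 CPM in Tg muscle and 577 to 1692 CPM in WT muscle, and their part in these values was not tested.

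Complex IV isoforms separated whole muscle from Tregs. Cox6a2, Cox7a1 and Cox8b are the heart and skeletal muscle forms of subunits whose general forms are Cox6a1, Cox7a2 and Cox8a. Per exon length, Cox6a2 made 93 to 95.1% of the Cox6a pair in the 6 whole muscle libraries, 0% in 9 of 10 Treg libraries and 0.322% in WT muscle Treg replicate 2, where it had 4 counts. Cox8b made 89.4 to 91.7% of its pair in whole muscle and 0 to 1.05% in Tregs, with 0 counts in 8 of 10 Treg libraries. Cox7a1 made 49.5 to 53.8% in whole muscle and 0.126 to 2.13% in Tregs. A count of 0 allows up to 3 counts, which is 0.329 to 1.51 CPM across Treg libraries, and covers counting error only. These 3 muscle forms did not pass the low-count filter in Tregs, and in whole muscle none was called between genotypes, with log2 differences of -0.11 to -0.13.

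The promoters of the Cox8 and Cox7a pairs are shown because these genes mark the contrast between whole muscle and Tregs. They are RefSeq windows on GRCm38.p6 from 250 bases before to 50 bases after the gene start, printed on the gene's strand. Capitals mark matches to the letters searched: CAGCTG (an E-box read by muscle bHLH factors, its own reverse complement) and CCGGAAGT or its complement ACTTCCGG (GABP). The Cox6a pair is not shown because Cox6a2 was not matched.
Cox8b (chr7:140900397-140900696, minus strand): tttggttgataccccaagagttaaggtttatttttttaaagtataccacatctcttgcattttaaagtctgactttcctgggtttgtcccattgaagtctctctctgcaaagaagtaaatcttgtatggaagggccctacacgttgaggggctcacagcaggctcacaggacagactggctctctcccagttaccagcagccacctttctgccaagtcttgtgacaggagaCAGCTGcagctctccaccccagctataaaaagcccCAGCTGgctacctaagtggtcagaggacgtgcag
Cox8a (chr19:7217567-7217866, minus strand): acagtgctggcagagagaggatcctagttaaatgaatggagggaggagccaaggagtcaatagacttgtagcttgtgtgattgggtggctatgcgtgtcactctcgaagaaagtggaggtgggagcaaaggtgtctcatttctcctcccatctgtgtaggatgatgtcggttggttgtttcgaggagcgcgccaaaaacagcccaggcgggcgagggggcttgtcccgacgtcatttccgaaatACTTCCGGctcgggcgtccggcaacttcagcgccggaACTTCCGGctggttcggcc
Cox7a1 (chr7:30183921-30184220, plus strand): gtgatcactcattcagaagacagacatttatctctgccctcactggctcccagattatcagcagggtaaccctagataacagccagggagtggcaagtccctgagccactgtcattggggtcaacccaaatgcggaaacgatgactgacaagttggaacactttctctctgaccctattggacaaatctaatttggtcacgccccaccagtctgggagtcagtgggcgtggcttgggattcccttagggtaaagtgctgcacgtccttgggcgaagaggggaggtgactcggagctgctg
Cox7a2 (chr9:79759804-79760103, minus strand): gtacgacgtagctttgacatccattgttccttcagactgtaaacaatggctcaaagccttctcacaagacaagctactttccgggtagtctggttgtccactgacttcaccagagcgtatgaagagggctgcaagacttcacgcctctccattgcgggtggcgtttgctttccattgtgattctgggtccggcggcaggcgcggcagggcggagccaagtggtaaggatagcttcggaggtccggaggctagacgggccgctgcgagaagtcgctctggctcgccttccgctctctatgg
Cox8b has 2 CAGCTG matches and Cox8a 2 ACTTCCGG matches in these windows, and the Cox7a windows have none of the motifs searched. A match is a description of letters, not a binding site.

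Across the 73 RefSeq promoters of the 68 nuclear members that could be matched (66 by symbol and 2 by synonym), both strands were searched for the cores of factors known for respiratory chain genes. The NRF1 core GCGCATGC was in 10 promoters (13.7%), against 2.71% of all 32851 mouse promoters in the table, and the YY1 core AAGATGGC was in 10 (13.7%), against 2.75%. The GABP core was in 5 (6.85%), against 3.89%. At least 1 of these 3 was in 24 (32.9%), against 8.83%. CAGCTG was in 6 (8.22%), against 16.3%, and the MEF2 consensus in 0, against 1.86%.

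**Figure D4:**
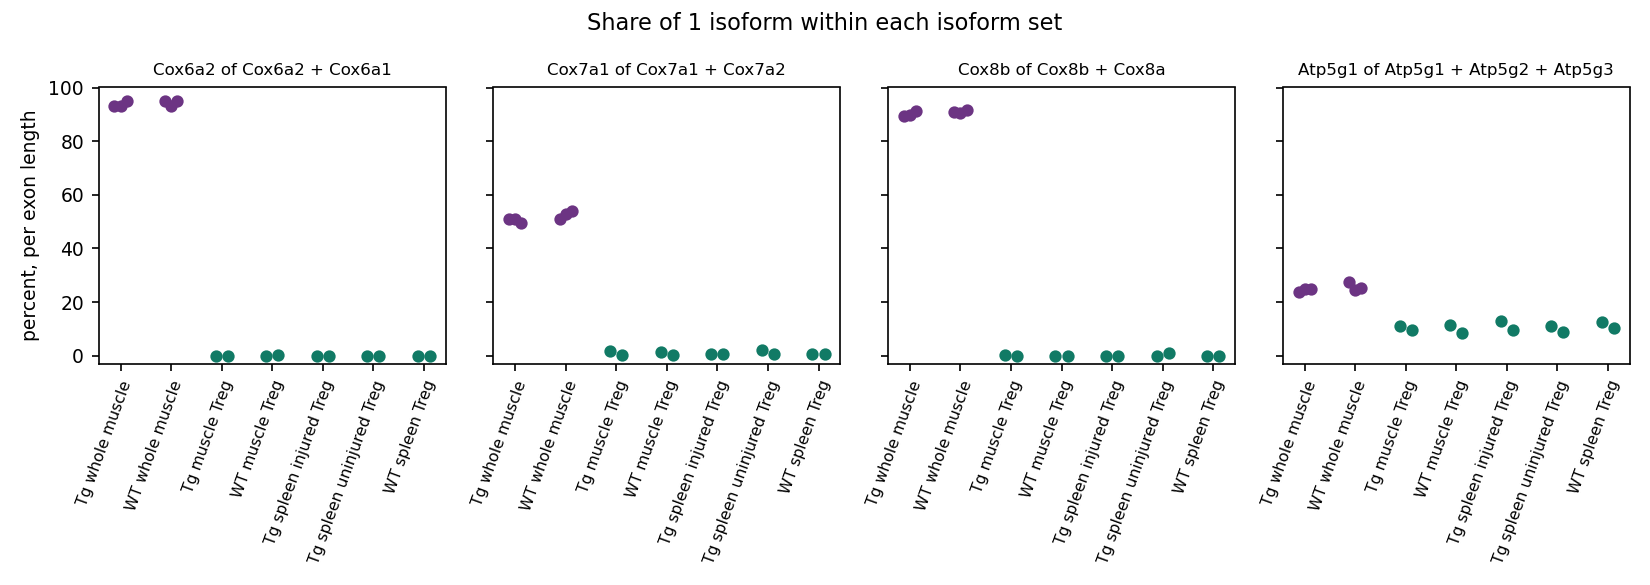
Percent of each isoform set contributed by Cox6a2, Cox7a1, Cox8b or Atp5g1 (vertical axis, from levels per exon length) in whole muscle (purple) and Treg groups (green); points are libraries. The 3 cytochrome oxidase forms lie at 49.5 to 95.1% in whole muscle and at 0 to 2.13% in Tregs, while Atp5g1 differs less, at 23.8 to 27.4% in whole muscle and 8.6 to 12.8% in Tregs. The size of the Atp5g1 share depends on its annotated exon length of 4912 bases.

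Other isoform sets differed by smaller amounts. The genes Atp5g1, Atp5g2 and Atp5g3 all encode the c subunit of the ATP synthase rotor. Atp5g1 made 23.8 to 27.4% of their sum in whole muscle and 8.6 to 12.8% in Tregs, and Atp5g2 3.42 to 4.64% in whole muscle and 8.94 to 13.7% in Tregs. Atp5g3 had the largest share in each by this measure, at 69.2 to 72.1% in whole muscle and 73.8 to 81.6% in Tregs. The shares divide counts by joined exon lengths of 4912 bases for Atp5g1, 1675 for Atp5g2 and 2181 for Atp5g3. Their sizes within a library therefore depend on the annotation. Ndufa4l2, a relative of Ndufa4, had 36 to 52 counts in whole muscle and at most 1 count in any Treg library. Cox6b2 had at most 6 counts in any library, and Cox7b2 and Cox8c had 0 in all 16.

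Cox4i2, an alternative form of Cox4i1 known from lung, had low counts that differed by group. Tg muscle Tregs had 16 and 29 counts, against 0 and 1 count in Tg spleen after injury. WT muscle Tregs had 10 and 0 counts, against 0 and 0 in WT spleen Tregs. Uninjured Tg spleen Tregs had 2 and 0 counts. It was not called, with an edgeR adjusted p of 0.0887 in Tg and 0.23 in WT, but the Tg value passed the threshold without the low-count filter (adjusted p = 0.0187) and in a fit of the compared groups alone (0.00385). In Tg muscle Tregs Cox4i2 made 2.22 and 2.52% of the Cox4i pair per exon length, more than the 0.221 to 0.596% of whole muscle.

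Reads of 25 bases can fall on sequence that several genes share, and this touches the mitochondrial members most. The share of 25-base windows also found in the transcripts of another GENCODE M21 gene had a median of 66.3% over the 12 mitochondrial members and 7.77% over the 83 nuclear ones. It was 100% for mt-Co2, 99.9% for mt-Co3, 99.5% for mt-Atp6, 98.9% for mt-Nd4l and 98.1% for mt-Nd3, which share their sequence with nuclear pseudogenes. These 5 had low counts in Tregs, and so did mt-Atp8, with 0 to 7 counts and 11.7% shared. Gm28661 had 12 to 58 counts in Treg libraries, where mt-Co2 had 13 to 75, and Gm28437 had 9 to 35, where mt-Co3 had 7 to 35. Gm10925 had 33 to 177 counts, where mt-Atp6 had 27 to 106, and Gm10222 had 1 to 5, as did mt-Nd4l. Gm28438 was lower than its partner, with 0 to 14 counts where mt-Nd3 had 12 to 50. Levels and changes of these 5 genes are therefore uncertain. mt-Nd1 shared 0%, mt-Cytb 13%, mt-Nd6 14.9%, mt-Nd2 18.2% and mt-Nd5 21.3%, so 4 of the 5 genes called lower in Tg lie mostly in sequence of their own. mt-Nd4, the fifth, shared 62.9% and mt-Co1 69.7%. Their main partners Gm28439 and Gm13340 had at most 17 and 46 counts in a Treg library, against at least 844 and 6786 for mt-Nd4 and mt-Co1. The treatment of multiply mapped reads is not known, so these counts cannot show that mt-Nd4 or mt-Co1 were counted whole. mt-Co1 is also the base of the ratios given above. Among nuclear members Atp5l shared 85.6%, Atp5h 65%, Uqcrb 62.4%, Ndufs3 61.4%, Atp5o 54.7% and Cox5a 52.5%, and none of these was called in any comparison.

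**Figure D5:**
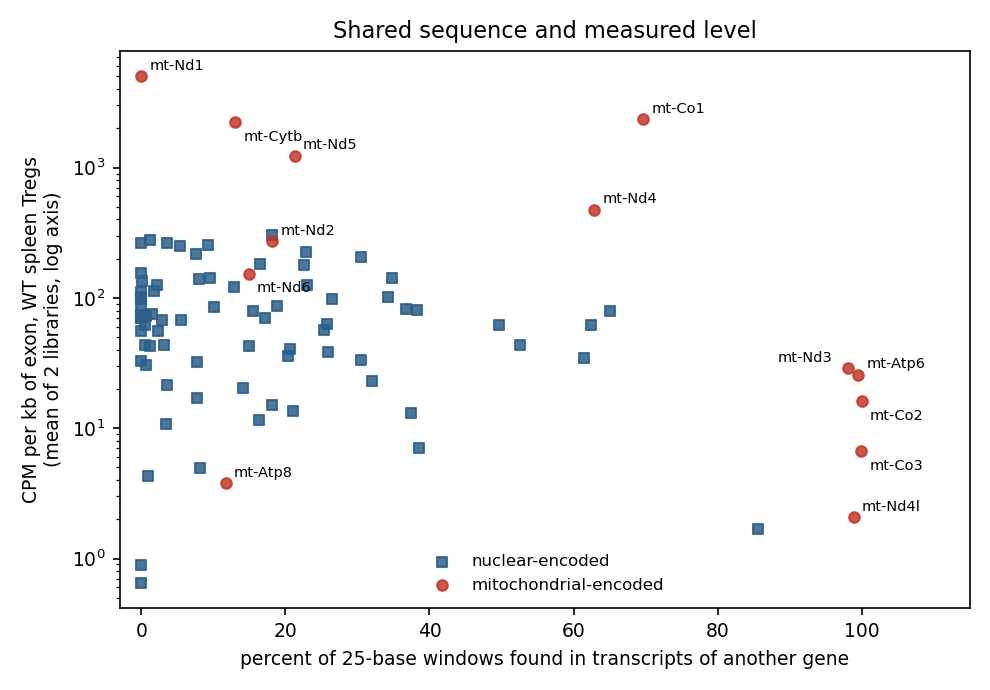
Percent of 25-base windows of each gene found in transcripts of another gene (horizontal axis) against its level in WT spleen Tregs in CPM per kilobase of exon (vertical log axis, mean of 2 libraries), mitochondrial genes in red, mt-Cytb included, and nuclear genes in blue; genes at 0 in WT spleen Tregs are not drawn. mt-Co2, mt-Co3, mt-Atp6, mt-Nd3 and mt-Nd4l, at 98.1 to 100%, lie far below mt-Nd1, mt-Co1 and mt-Nd5 in level. mt-Atp8, at 11.7%, was also low, with 0 and 7 counts in the WT spleen Treg libraries.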

How the data were processed

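Read counts per gene were deposited for 16 libraries. STAR 2.5.4, mm10 and featureCounts are named in the submitters' processing notes as the authors' aligner, build and counter. The annotation, strand setting and treatment of multiply mapped reads were not given in the sources used here. Oligo(dT)-primed cDNA was amplified and fragmented by transposon, per the labels' protocols, without strand, so reads of overlapping and antisense genes cannot be told apart.

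From the deposited counts, CPM (by library total) and shares were computed. Genes were tested with edgeR 4.0.16 in R 4.3.3 (filterByExpr, TMM, estimateDisp, robust glmQLFit, glmQLFTest, Benjamini-Hochberg), in 1 fit of 10 Treg libraries (5 residual degrees of freedom) and 1 of 6 whole muscle libraries (4). SEs come from the test statistic. DESeq2 1.42.0, limma-voom 3.58.1, other scalings and filters, and leaving out libraries were alternatives. The procedure was tested on simulated data. Levels per kilobase use GENCODE M21 exon length; Atp5o, with 2 GENCODE genes, has none. Named genes are the called members (up to 12 per direction), the most abundant uncalled member of each complex, all mitochondrial members and the isoform sets, plus up to 4 called members of other lists. Members and lists were chosen with earlier results of these data known. Replicate numbers were not taken as pairs.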

Additional observations from a re-analysis of the deposited data

How the results depend on the processing

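Of the results here, the count of members called in WT muscle against WT spleen Tregs was 8 and became 2 when only the compared groups were fitted. Leaving out a library could change that count. It could also change those of Tg muscle against injured Tg spleen (6 with all) and Tg against WT muscle Tregs (0 with all). Calls over all genes changed in these fits too, each of which keeps 1 library in a group. The other comparisons gave no member calls when a library was left out. With a replicate block the counts were 11 in WT muscle against WT spleen, 6 in Tg muscle against injured Tg spleen and 0 in each other comparison. Deviations of same-numbered libraries had correlations of -0.026 to 0.094, and the numbers were not taken as pairs. With 2 libraries per Treg group each Treg comparison gives a single value, which cannot exclude pairs. With mitochondrial-encoded genes left out of the total, the nuclear share was 1.17% in uninjured Tg spleen Tregs (1.15% otherwise), 4.43% in Tg whole muscle (4.19%) and 4.55% in WT whole muscle (4.28%). Uncalled genes changed sign in these cases: mt-Co1 in the WT tissue comparison, at -0.016 with a filter at 5 CPM, -0.191 with library totals and -0.171 to 0.184 when each library was left out, below 0 without WT spleen replicate 1 or WT muscle replicate 2, and mt-Co3 in the Tg tissue comparison, at -1.177 to 0.312 when each library was left out, above 0 without injured Tg spleen replicate 1. The cause was not tested. With library totals, chosen after seeing the data, 37.7% of called genes were higher in WT muscle Tregs (57.7% with TMM) and 38.9% in Tg muscle Tregs (65.5% with TMM). Groups of 2 or 3 libraries limit all tests, and low counts in Treg libraries limit mt-Atp6 (27 to 106), mt-Co2 (13 to 75), mt-Nd3 (12 to 50), mt-Co3 (7 to 35), mt-Atp8 (0 to 7) and mt-Nd4l (1 to 5).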
